A study of Mus musculus with 20 samples.

Results

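The response to amino acid starvation in the presence of Thiamet-G was measured by Ribo-seq in mouse embryonic fibroblasts, in 2 fed and 2 starved libraries. These 4 libraries, chosen by their titles, are among 12 Ribo-seq libraries and 20 samples in all. The cells were of strain C57BL/6J and were kept in DMEM with serum. Both groups had received 0.1 µM Thiamet-G for 16 h. The starved group was also held for 2 h in DMEM with "DFBS", an abbreviation left unexplained in the labels. The inhibitor is common to the fed and starved groups. The change of medium goes with starvation, and effects of the supplement of that medium cannot be told apart from those of amino acid lack. Control cells without Thiamet-G and Ogt knockout cells, treated for 24 h with 4-OHT at 0.5 µM and then moved to fresh medium, were each sequenced fed and starved in 2 libraries per group. Each lysate pooled several dishes. Separate cultures are not stated for the replicates in the labels, so a p-value here measures the variation between these libraries alone, and that variation may be technical.

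O-GlcNAc, a single sugar on serine or threonine residues of intracellular proteins, is attached by Ogt and taken off by O-GlcNAcase (Oga). Thiamet-G blocks Oga, so the modification accumulates in treated cells. Lack of amino acids leaves uncharged tRNAs that activate the kinase GCN2, which phosphorylates eIF2α and starts the integrated stress response. Initiation then declines on most messages, while a few with upstream open reading frames, of which Atf4 is the classic case, are translated more. Starvation also inactivates mTORC1, which lowers initiation on messages with a 5′ terminal oligopyrimidine tract, among them those of ribosomal proteins and elongation factors. The title of the series names O-GlcNAc on eIF3a, a subunit of initiation factor eIF3, and translation reinitiation in this stress response. Ribo-seq sequences the fragments that ribosomes shield from RNase, so a level here reflects both the amount of an mRNA and the ribosomes on it. No mRNA measurement was used, and these contributions cannot be told apart. Levels are in RPKM, the usual scaling of reads to coding length and library total, and are therefore shares of a library. A fall in footprints of every transcript at once would not show.

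The files identify transcripts by Ensembl number without gene names, and 0 lines of the reference tables hold such a number. The fibroblast label, the level of Oga or Ogt, Atf4 and lists of stress response or ribosomal protein genes were therefore not analysed here. Transcripts are grouped instead by coding length and by level, which the files do give. Coding length is recoverable from the steps between RPKM values, as are whole reads. Many ribosomal proteins, histones and respiratory chain subunits are encoded by short reading frames, but no transcript below is assigned to any of them.

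The fed libraries held 3430370 and 1934368 reads on coding regions (replicates 1 and 2), and the starved libraries 869064 and 958140 (replicates 1 and 2 of the titles). The file names number the starved libraries the other way round. Pairs follow the file names, which group libraries that deviate together. Pair 1 is fed replicate 1 with starved replicate 2, and pair 2 is fed replicate 2 with starved replicate 1. The 4 files listed 10438, 11917, 11431 and 9427 transcripts in that order of libraries, 13371 in any and 8795 in all 4. The files of pair 1 listed transcripts almost wholly from 5 reads upward, whereas transcripts under 5 reads made up 17.12% and 21.46% of those listed in the fed and starved files of pair 2. In pair 1, 1092 transcripts were listed in the fed library alone and 81 in the starved library alone. In pair 2 these numbers were 1645 and 1159. The larger fed-only number in pair 1 goes with a fed library that was over 3 times as deep as its starved partner under the same minimum. By total reads, depth was lowest in the starved libraries. The median listed transcript had 102, 52, 26 and 44 reads. The 102 and 44 of pair 1 leave out nearly all transcripts under 5 reads, so they are not comparable with those of pair 2.

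No transcript passed the test for starvation under Thiamet-G. Limma on log2(RPKM + 1), fitted over all 12 Ribo-seq libraries with the file-name replicate number as a block, tested the 10973 transcripts that averaged 1 RPKM or more. At a Benjamini-Hochberg adjusted p under 0.05, limma called 0 higher (0.0%) and 0 lower (0.0%), with a lowest adjusted p of 0.101. At an unadjusted p under 0.05 there were 457 higher (4.16%) and 613 lower (5.59%) transcripts in starved cells. Limma-voom on the recovered reads called 7 higher (0.0707%) and 6 lower (0.0606%) of 9906 transcripts. Limma on the 4 Thiamet-G libraries alone called 81 higher (0.747%) and 150 lower (1.38%) of 10837, with 1 residual degree of freedom, so that the spread in that fit comes almost entirely from its value pooled over transcripts. The balance of directions moved with the scaling. The 457 higher and 613 lower became 493 and 493 under quantile normalization and 607 and 473 on RPKM as deposited. Limma-voom, which also differs in its input, weights and filter, gave 547 and 223. The median log2 difference of all transcripts was -0.03 in the first fit and 0.14 in limma-voom, so class medians are also given relative to that of all transcripts.

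The transcripts with the lowest p in each direction are shown with every value, as examples of how far the 4 libraries separated. None of them passed the test over all 12 libraries. ENSMUST00000080926 (coding length 1305 nt) had the lowest p of all. It measured 24.8 and 5.55 RPKM in fed replicates 1 and 2 and 253 and 192 RPKM in starved replicates 1 and 2. Both starved libraries lay far above both fed libraries. The means were 15.2 ± 13.6 RPKM fed and 223 ± 43.2 RPKM starved (SD, n = 2 each). The log2 difference was 3.97 (SE 0.653, limma adjusted p = 0.101), 2.65 in pair 1 and 5.29 in pair 2. The lower fed value rests on 14 reads.

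ENSMUST00000020980, with a coding length of 1173 nt, measured 126 and 48.5 RPKM in fed replicates 1 and 2. Its starved replicates 1 and 2 had 405 and 653 RPKM. The groups did not overlap, and the library of pair 2 lay below that of pair 1 in both groups. The log2 difference was 2.57 (SE 0.441, limma adjusted p = 0.101), with 2.11 in pair 1 and 3.03 in pair 2.

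In the other direction, ENSMUST00000038945, with a coding length of 378 nt, measured 207 and 249 RPKM in fed replicates 1 and 2 against 30.4 and 24.9 RPKM in starved replicates 1 and 2. Both groups were tight and far apart, but the starved values stand for only 10 and 9 reads. The log2 difference was -3.13 (SE 0.516, limma adjusted p = 0.101), with -3.25 and -3.00 in pairs 1 and 2.

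ENSMUST00000054220, with a coding length of 531 nt, was among the most footprinted transcripts of the fed cells. It measured 8924 and 9310 RPKM in fed replicates 1 and 2 and 1307 and 1390 RPKM in starved replicates 1 and 2, on 603 reads or more in each. The means were 9117 ± 273 RPKM fed and 1348 ± 58.6 RPKM starved (SD, n = 2 each), and the replicates of each group lay close together. The log2 difference was -2.89 (SE 0.507, limma adjusted p = 0.101), -2.94 in pair 1 and -2.84 in pair 2. The standard error comes from the fit over all 6 groups and its pooled prior, not from these 4 libraries. Fed knockout replicates 1 and 2 had 4859 and 1536 RPKM.

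In control cells without Thiamet-G the same 4 transcripts differed in the same directions, by 2.57, 1.85, -1.87 and -2.40 on the log2 scale in the order above (limma adjusted p = 0.188, 0.157, 0.212 and 0.116). In knockout cells the differences were -0.29, 0.22, -1.04 and -1.02 (limma adjusted p = 1.0 for each). The first 2 transcripts were already high in fed knockout cells, at 217 ± 93.7 and 325 ± 81.6 RPKM (SD, n = 2), against 15.2 ± 13.6 and 87.4 ± 55.0 RPKM in fed Thiamet-G cells. When starved, the first averaged 223, 239 and 169.9 RPKM in Thiamet-G, control and knockout cells, and the second 529, 419 and 383 RPKM. The difference of responses between Thiamet-G and knockout cells was 4.26 (SE 0.923) for ENSMUST00000080926 and 2.36 (SE 0.623) for ENSMUST00000020980, each with a limma adjusted p of 0.94. These 4 were chosen for their response under Thiamet-G, so a smaller value elsewhere is no finding about the backgrounds.

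**Figure D1:**
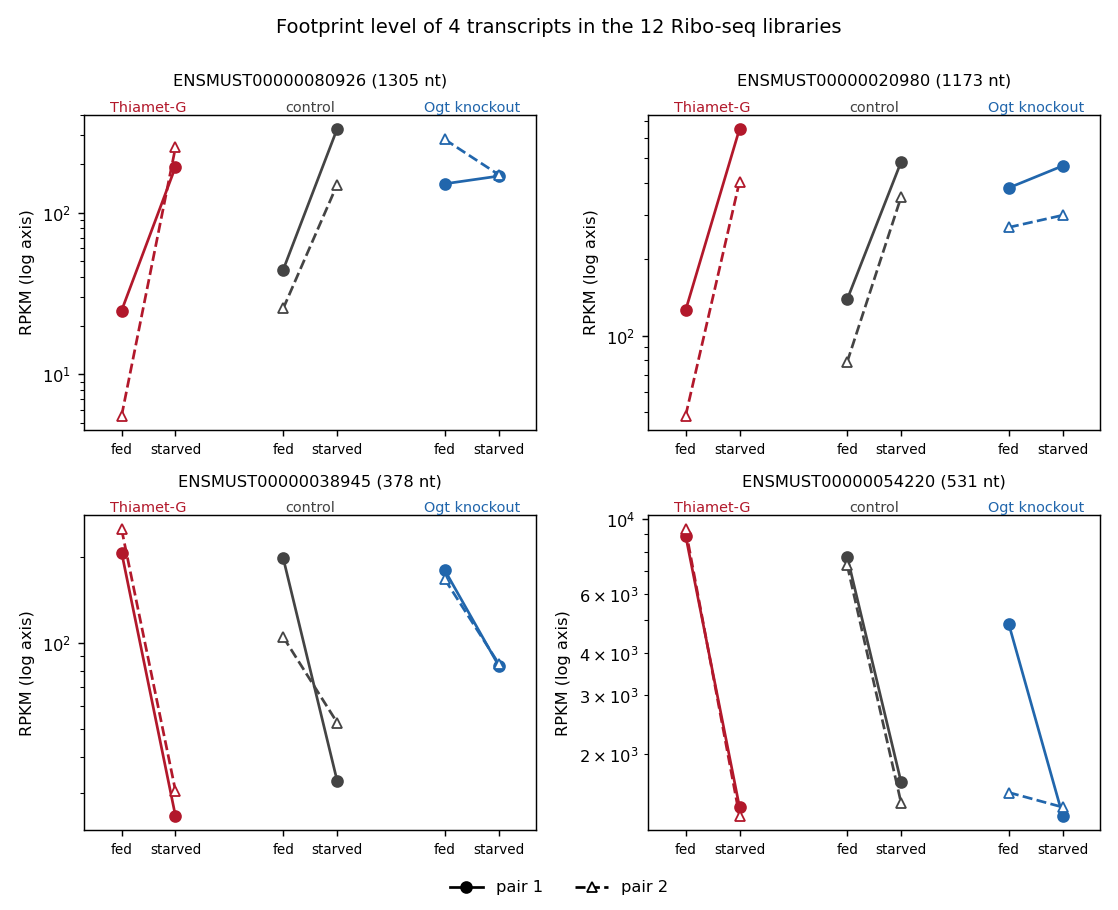
RPKM on a log axis of the 4 transcripts in each of the 12 Ribo-seq libraries, fed and starved, with circles and solid lines for pair 1 and triangles and dashed lines for pair 2. In Thiamet-G cells every starved library lies beyond both fed libraries, for example at 1307 and 1390 RPKM against 8924 and 9310 RPKM for ENSMUST00000054220.

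Across transcripts, the starvation difference was only partly shared by the 2 pairs. Over the 10973 tested transcripts, the log2 differences of pair 1 and pair 2 correlated at r = 0.157 (Spearman's rho 0.191), a description across transcripts that share 4 libraries. Among 3737 transcripts with a mean of at least 100 reads, r was 0.325 and rho 0.355. In these well-read transcripts the differences had an SD of 0.85 in pair 1 and 1.14 in pair 2, while the median SD from counting alone was 0.157 and 0.182. Most of the scatter was therefore larger than counting error. At least a 2-fold difference in both pairs was found lower in 514 transcripts (4.68%) and higher in 332 (3.03%). A 2-fold difference in opposite directions was found in 138 transcripts (1.26%) that were higher in pair 1 and lower in pair 2, and in 300 (2.73%) with the reverse pattern.

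**Figure D2:**
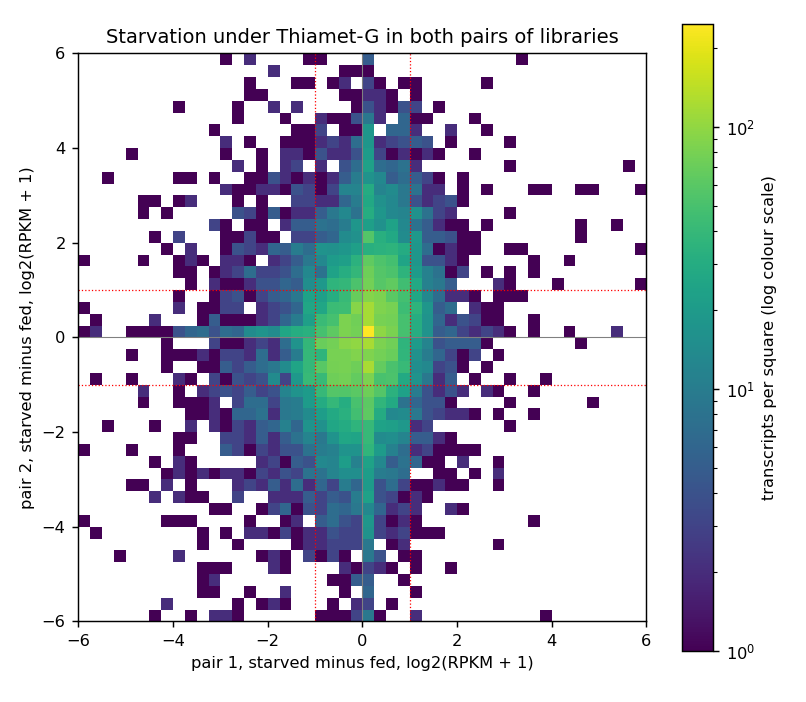
Each square counts transcripts by their starved minus fed difference in log2(RPKM + 1), pair 1 across and pair 2 upward, on a log colour scale, with dotted lines at a 2-fold difference and values beyond the axes placed at their edge. The cloud is taller than wide (SD 1.71 in pair 2 and 1.01 in pair 1) and tilts only weakly (r = 0.157), and the bands along 0 hold transcripts not listed in either library of a pair.

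The wider scatter was found in each comparison made that included a library of pair 2. Only the comparison within pair 1 did not, so scatter in pair 2 and agreement within pair 1 cannot be told apart. Of 6195 transcripts whose fed level in pair 1 predicted at least 20 reads in the starved library, 56 (0.904%) were over 4-fold lower there. In pair 2 the number was 783 of 6136 (12.8%). Taken from the starved to the fed library, 314 of 9227 (3.40%) were over 4-fold lower in pair 1 and 1253 of 7776 (16.1%) in pair 2. Between the fed libraries of pairs 1 and 2, 899 of 7846 (11.5%) were over 4-fold lower in the second, and between the starved libraries 936 of 6608 (14.2%). The reads of the fed replicates, and those of the starved replicates, differed by more than counting error, with a median chi-square per transcript of 14.9 and 7.98. These values grow with depth, take reads as independent and are not compared with each other.

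The difference in pair 1 resembled the same pair in the other backgrounds, which share no library with it but share its file number and listing minimum. In well-read transcripts, Thiamet-G pair 1 correlated with control pair 1 at r = 0.706 and with knockout pair 1 at r = 0.561. Thiamet-G pair 2 correlated with control pair 2 at r = 0.357 and with knockout pair 2 at r = -0.064. Across file numbers, Thiamet-G pair 1 correlated at r = 0.291 with control pair 2 and at r = -0.123 with knockout pair 2. For Thiamet-G pair 2 the values were r = 0.325 with control pair 1 and r = 0.202 with knockout pair 1. The correlation of Thiamet-G pair 1 with control pair 1 was higher than that of both Thiamet-G pairs with each other. Whether the file number or the starvation response accounts for this was not tested.

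Footprints on short coding regions made up less of the starved libraries. The 1472 tested transcripts of at most 600 nt had a median log2 difference of -0.46, -0.44 relative to all transcripts. The median was -0.60 in pair 1 and -0.18 in pair 2. Of them 718 (48.8%) were lower in starved cells in both pairs and 113 (7.68%) higher in both, against 27.5% and 25.9% of all tested transcripts. At an unadjusted p under 0.05 by limma, 221 (15.0%) were lower and 22 (1.49%) higher, beside 5.59% and 4.16% of all. Relative to all transcripts the median was -0.22 without fed replicate 1 and -0.65 without fed replicate 2.

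The 7960 transcripts of intermediate length, above 600 and up to 3000 nt, had a median of -0.01, with 27.1% lower and 26.7% higher in both pairs. At an unadjusted p under 0.05 by limma, 377 were lower and 410 higher (4.74% and 5.15%), with more on the higher side, unlike all transcripts. The 1452 transcripts over 3000 nt had a median of 0.26, 0.28 relative to all, with 0.36 in pair 1 and 0.09 in pair 2. In both pairs 9.64% of them were lower and 41.3% higher. At an unadjusted p under 0.05 by limma, 6 were lower and 23 higher (0.413% and 1.58%), both shares below those of all transcripts. Long transcripts are read at lower levels, with a median of 6.98 RPKM against 146 RPKM for the short class. Relative to all transcripts the median of the long class was 0.20 without fed replicate 1, 0.43 without fed replicate 2 and 0.14 without the filter on low values.

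By deciles of coding length, the median difference in pair 1 went from -0.61 in the shortest decile (78 to 522 nt) through 0.00 in the fifth to 0.39 in the longest (3408 to 23154 nt). In pair 2 it went from -0.21 to 0.10, with the highest value, 0.16, in the ninth. Control cells gave -1.19 and 0.53 for the shortest and longest decile in pair 1, and -0.33 and -0.04 in pair 2. Knockout cells gave -0.03 and 0.08 in pair 1 and 0.00 at both ends in pair 2. In Thiamet-G cells the slope along length thus had the same sign in both pairs but differed in size. The difference between the backgrounds was not tested for the length classes.

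**Figure D3:**
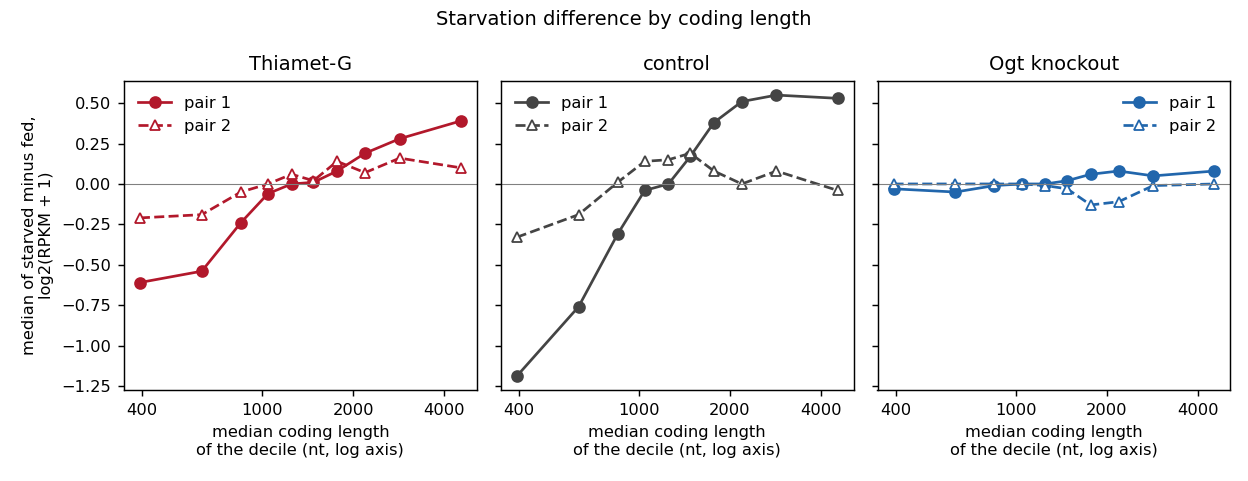
Median starved minus fed difference in log2(RPKM + 1) for each decile of the tested transcripts by coding length (log axis), with circles for pair 1 and triangles for pair 2, in each background. In Thiamet-G cells the medians run from -0.61 to 0.39 in pair 1 and from -0.21 to 0.10 in pair 2.

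The same shift appeared in the reads of each library, without the filter on low levels or the rescaling. Coding regions of at most 600 nt took 39.8% and 33.8% of the reads in fed replicates 1 and 2 and 27.8% and 25.7% in starved replicates 1 and 2. Both starved libraries lay below both fed libraries. The means were 36.8% ± 4.23 and 26.8% ± 1.50 (SD, n = 2 each). The difference was -10.0 percentage points, -14.1 in pair 1 and -5.97 in pair 2. A two-sided exact permutation test gave p = 0.333, the smallest that 2 against 2 libraries allow. Counting error was small, with a 95% Wilson interval of at most 0.101 points to either side. In control cells the difference was -14.7 points (-22.0 and -7.42 in pairs 1 and 2), and in knockout cells -0.546 points (-3.60 and 2.51), from a fed share of 26.8% ± 2.22.

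Coding regions of intermediate length took 53.7% and 59.0% of reads in fed replicates 1 and 2 and 64.1% and 62.4% in starved replicates 1 and 2, a difference of 6.84 points (exact permutation p = 0.333, n = 2 each). Those over 3000 nt took 5.80% and 6.99% fed and 7.93% and 9.20% starved, a difference of 2.17 points (exact permutation p = 0.333, n = 2 each). As a share of summed RPKM, which gives long coding regions less weight, the difference was 0.523 points. In both classes the starved libraries lay above the fed ones without overlap. The remaining 0.168% to 2.72% of reads lay on transcripts that were not listed or had no recovered length, the largest share in starved replicate 2.

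**Figure D4:**
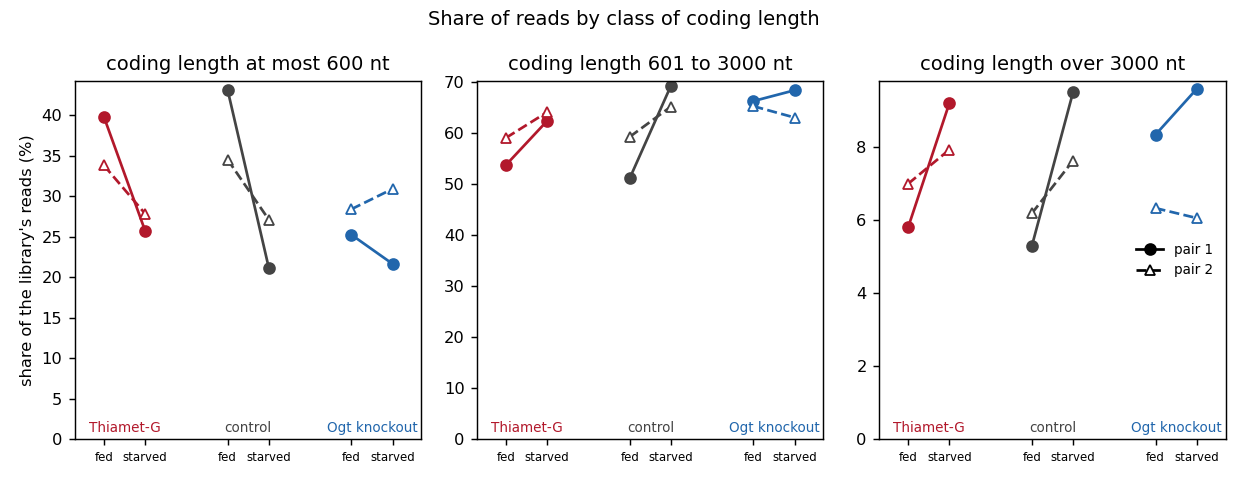
Share of each Ribo-seq library's reads, in percent, on coding regions of 3 length classes, fed and starved, with circles for pair 1 and triangles for pair 2. In Thiamet-G cells the short class goes from 39.8% to 25.7% in pair 1 and from 33.8% to 27.8% in pair 2.

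Level and length were related, so the classes were also split by level, the mean RPKM over the 12 libraries. In the highest quartile of level, at 68.9 RPKM or more, the 985 short transcripts had a median difference of -0.44, with 57.1% lower in both pairs, whereas the 1737 of intermediate length had -0.06 and 37.4%. In the third quartile the medians were -0.46 for 203 short transcripts, 0.03 for intermediate and 0.29 for 172 long ones. In the second they were -0.85, 0.01 and 0.20. The fitted medians kept the order of the length classes in each quartile of level, but the medians of pair 2 alone did not. At low levels, unlisted values set to 0 also enter the order. A minimum in reads stands for a higher RPKM on a shorter coding region and in a shallower library. The split by level does not set this aside, and its part was not tested. In pair 2 the short, intermediate and long classes had 0.00, 0.00 and -0.05 in the second quartile and -0.27, 0.04 and -0.15 in the highest. In the lowest quartile, under 6.94 RPKM, the short class held 157 transcripts with pair medians of 0.00, since many of them were not listed in either library of a pair.

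**Figure D5:**
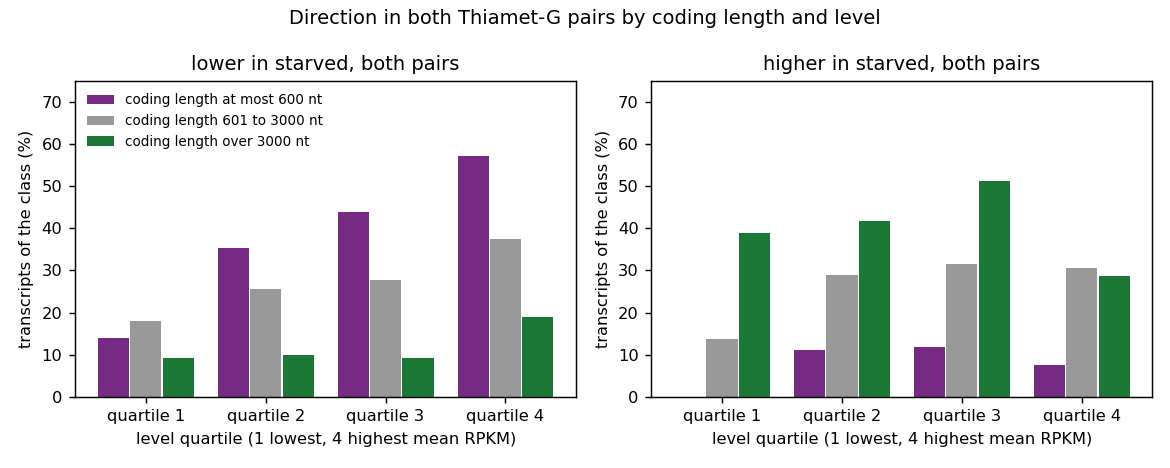
Percent of transcripts that were lower (left) or higher (right) in starved Thiamet-G cells in both pairs, by quartile of mean RPKM and class of coding length. In each of the top 3 quartiles the short class has the largest share lower in both pairs, up to 57.1%, and in the lowest 3 the long class has the largest share higher in both, up to 51.2%.

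The most footprinted transcripts tended to be lower in starved cells. The 110 transcripts at 2040 RPKM or more were short (median 384 nt) and had a median log2 difference of -0.75, -1.09 in pair 1 and -0.58 in pair 2. Of these 69.1% were lower in both pairs and 10.0% higher in both. To keep the choice apart from the libraries compared, the 100 transcripts of highest mean RPKM in the fed control and knockout libraries were also taken. Under Thiamet-G their median difference was -0.91 (-1.19 in pair 1 and -0.65 in pair 2), with 72 lower and 8 higher in both pairs. At an unadjusted p under 0.05 by limma 41 were lower and 0 higher, beside 5.59% and 4.16% of all tested. Of the 100, 87 had coding regions of at most 600 nt. The list was chosen from fed cells alone, so it can favour transcripts that are lower when starved, and this was not tested.

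The reads of starved cells were accordingly spread over more transcripts. The 100 most read transcripts of each library took 26.9% and 24.9% of the reads in fed replicates 1 and 2 and 22.3% and 17.4% in starved replicates 1 and 2. The number of transcripts that together held 50% of the listed reads was 501 and 614 fed and 657 and 833 starved. The groups did not overlap in either measure (exact permutation p = 0.333, n = 2 each, for both), and starved replicate 2 stood farthest from the fed libraries. The top 100 of the fed replicates had 77 transcripts in common and those of the starved replicates 66. Fed and starved libraries of pair 1 shared 65, and those of pair 2 shared 74.

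Transcripts whose libraries did not overlap, with at least a 2-fold difference and the same sign in both pairs, numbered 1034 lower (9.42%) and 956 higher (8.71%). Coding regions of the 1034 were 930 nt at the median, 26.1% of them at most 600 nt. Of the 1034, 154 were listed in neither starved library and 0 in neither fed library. Coding regions of the 956 were 1708.5 nt at the median, 3.03% of them at most 600 nt, and here these numbers were 0 and 8. Among all tested transcripts the median was 1356 nt, with 13.5% at most 600 nt, and 539 were listed in neither starved and 259 in neither fed library. A minimum in reads bears more on short coding regions, and its part in this length contrast was not tested. The levels of both sets, with medians of 21.1 and 18.7 RPKM, were close to the 21.1 RPKM of all.

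In control cells, which had no part in choosing them, 74.8% of the 1034 were lower when starved, with a median log2 difference of -0.99 in pair 1 and -0.46 in pair 2. Of the 956, 81.2% were higher, with medians of 1.10 and 0.46. Among all tested transcripts 48.6% were lower and 51.2% higher. In knockout cells pairs 1 and 2 went different ways. The 1034 had medians of -0.32 and 0.11 there, and the 956 had 0.32 and -0.18. The direction seen under Thiamet-G was therefore found in both control pairs and in 1 of 2 knockout pairs.

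The other fits made calls of their own. The 150 called lower by limma in the 4 libraries alone were 501 nt long at the median, with 94 of at most 600 nt, and 136 of them were also lower in control cells and 99 in knockout cells. The 81 called higher were 1014 nt long at the median, with 20 (24.7%) of at most 600 nt, and so were shorter than the non-overlapping higher set and than all tested transcripts. Of these 81, 72 were higher in control and 50 in knockout cells. Among all tested transcripts 48.6% were lower and 51.2% higher in control cells, and 49.0% lower and 49.3% higher in knockout cells. Of the 6 called lower by limma-voom, 5 had coding regions of at most 600 nt, with levels from 863 to 4700 RPKM. Of the 7 called higher, none was that short, and 6 of the 7 and all 6 of the lower ones were among the calls from the 4 libraries alone.

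Whether the response under Thiamet-G differed from that of the other backgrounds was tested as an interaction. Against control cells limma called 0 of 10973 transcripts (0.0%), with 305 (2.78%) at an unadjusted p under 0.05. Against knockout cells it called 0 (0.0%), with 487 (4.44%). Limma-voom called 0 and 1. For the short class the median difference of responses was 0.25 against control cells and -0.43 against knockout cells. For the long class it was -0.06 and 0.20. For the 110 transcripts of highest level it was 0.36 and -0.39. The medians under Thiamet-G of the whole short class and of these 110 thus lay between those of control and knockout cells. Short transcripts of the lower level quartiles went otherwise. Their Thiamet-G medians were -0.50 and -0.85 in the first and second quartile. Those of control cells were -0.32 and -0.71, and those of knockout cells 0.00 in both. By pairs 1 and 2, however, the Thiamet-G medians were 0.00 and 0.00 in the first quartile and -0.57 and 0.00 in the second. Only 14.0% and 35.4% of these short transcripts were lower in both pairs. Unlisted values, set to 0, and the lower depth of the starved libraries enter these medians, and their part was not tested. These are descriptions without a test.

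Thiamet-G cells were also sampled by eIF3-80S-seq, which sequences footprints of ribosomes associated with eIF3, in 1 fed and 1 starved library of 359282 and 136966 reads. There is no replicate check for these values. The short class took 19.5% of reads in the fed and 10.5% in the starved library, and the long class 17.5% and 25.3%. Reads in no length class made up 3.27% and 13.7%, and the latter exceeds the difference of the short class. Of 604 short transcripts listed in both, 454 were lower in the starved library (median log2 ratio -0.50), against 2347 of all 4310 tested transcripts listed in both (-0.08). Being listed in both depends on level, and 596 of the 604 were in the highest quartile of level. There the short class had a median of -0.51, the intermediate class -0.27 and the 17 long transcripts -0.37. Over all lengths the median went from 0.53 in the lowest quartile to -0.33 in the highest. Level and listing therefore enter the contrast of -0.50 with -0.08, and their part was not tested. The 100 transcripts of highest RPKM in fed control and knockout cells, of which 98 were listed in both, had a median of -1.11, with 90 lower. Their choice from fed libraries can favour this direction here too. Of the non-overlapping sets, 201 of 269 listed members of the lower set (74.7%) were lower and 59.7% of the 457 of the higher set were higher. The single transcripts differed. ENSMUST00000054220 went from 3281 to 1004 RPKM and ENSMUST00000020980 from 235 to 1525 RPKM, in the direction of Ribo-seq. ENSMUST00000080926 went from 111 to 61.5 RPKM, against it, on 52 and 11 reads. ENSMUST00000038945 had 132.5 RPKM, or 18 reads, in the fed library and was not listed in the starved one.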

How the data were processed

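Each library's deposited file pairs transcript identifiers with RPKM values made by the authors. Per the submitters' processing notes, cutadapt, STAR and the build GRCm38 were used. For the read counter, annotation and filters no source used here gives a name. Whole reads, library totals and coding lengths were recovered from the steps between RPKM values. Whole reads came out for 99.76% and 96.27% of listed values in fed replicates 1 and 2, and for 96.75% and 99.97% in starved replicates 1 and 2. The recovery and the fit were tested on simulated data.

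Unlisted transcripts were set to 0. RPKM was rescaled between the 12 Ribo-seq libraries by median ratios, with factors of 0.936 to 1.139 for the Thiamet-G libraries, and log2(RPKM + 1) was fitted with limma 3.58.1 in R 4.3.3 (lmFit, eBayes with trend, 6 groups and the file-name replicate number as a block). Transcripts averaging 1 RPKM or more were tested two-sided, with Benjamini-Hochberg adjustment over all of them. Pairing by replicates 1 and 2 of the file names was part of the plan. As a check, libraries of 1 number deviated together from their group means, with r from 0.19 to 0.452 over all 15 pairs of groups. For fed with starved Thiamet-G r was 0.38. Among transcripts listed in all 12 the range was 0.081 to 0.444. Files of number 1 also share a listing minimum, which can enter these values. Limma-voom used recovered reads with a mean of at least 10. Shares of reads were compared by exact permutation tests, and their intervals cover counting error only.

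The transcripts printed were the 2 of lowest p in each direction whose libraries did not overlap and whose pairs had 1 sign. Gene lists and cell markers could not be applied without gene names. The libraries, length classes and lists were chosen with earlier results of these data known. Alternatives were scaling, pseudocount, filter, block, trend, each library left out, the 4 libraries alone and limma-voom.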

Additional observations from a re-analysis of the deposited data

How the results depend on the processing

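Transcripts called for starvation under Thiamet-G numbered 0 higher and 0 lower by limma without a replicate block, with the block by title numbers, under quantile normalization, on RPKM as deposited, without or with a stricter filter and without a trend (654 to 1171 at an unadjusted p under 0.05). A pseudocount of 0.1 gave 2 lower. Leaving out single Thiamet-G libraries gave 0 to 1 higher and 0 lower, with 364 to 1582 at an unadjusted p under 0.05, the fewest without fed replicate 2. In each of these fits 1 group has a single library, which is assumed to vary like the other groups. The 4 libraries alone with the replicate block gave 81 and 150, and limma-voom with the replicate block 7 and 6. The interaction with knockout cells gave 1 in limma-voom and 0 in the other fits, and that with control cells 0 in all 13. The cause of these differences was not tested. The 4 named transcripts kept their direction in all 14 alternatives, with log2 differences of 3.02 to 4.93 and 2.18 to 2.97 for the higher and -3.40 to -2.86 and -3.15 to -2.24 for the lower ones in the order of the report. All 4 passed limma in the 4 libraries alone, and all but ENSMUST00000038945 in limma-voom. The short class kept a median below 0 (-0.667 to -0.257) and the long class one above 0 (0.138 to 0.51), whereas the medians of all transcripts, of intermediate length and of the 3 lower level quartiles changed sign between alternatives or were at 0. The share of reads on intermediate lengths differed by 4.19 to 9.5 points with single libraries left out, the short share by -13.0 to -7.03 points over all alternatives and the long share by 0.523 (summed RPKM) to 2.80 points. These alternatives for the shares were chosen after seeing the data. With 44 or fewer reads for the median listed transcript, the starved libraries limit what low transcripts can show.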
